A study of Homo sapiens with 6 samples.

Results

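The integrin and laminin genes are the receptors and the ligands of one adhesion system. They were taken as all protein-coding genes of GENCODE 29 whose symbol is that of an integrin alpha chain, an integrin beta chain or a laminin alpha, beta or gamma chain. There were 38 of these among 58174 genes, with 18 integrin alpha, 8 integrin beta, 5 laminin alpha, 4 laminin beta and 3 laminin gamma genes. SiHa is an established cell line from a human squamous cell carcinoma of the cervix. The OV-BRCA1 group (3 samples) received the GV230-BRCA1 plasmid, which carries BRCA1, and the NC group (3 samples) received the empty GV230 vector. Both groups were transfected with Lipofectamine and collected after 48 h, so all samples are transiently transfected cultures that were sequenced in bulk. The comparison asked which genes differ when BRCA1, a DNA repair gene, is overexpressed.

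A laminin is a cross-shaped protein of the basement membrane, built from an alpha, a beta and a gamma chain that are joined along a coiled coil. An integrin is a membrane receptor made of an alpha and a beta chain, which binds matrix proteins or other cells outside and the actin or keratin network inside. In squamous epithelium, laminin-332, which contains the products of LAMA3 and LAMB3, is the main adhesive laminin, and the integrins alpha3beta1 and alpha6beta4 are its receptors.

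The measure was FPKM, fragment numbers corrected for transcript length and for sequencing depth, summed over the transcripts of each gene. The depth was estimated at 14.35 to 16.57 M fragments in the OV-BRCA1 samples and 16.03 to 20.03 M in the NC samples. BRCA1 stood at 37.1 ± 3.18 FPKM (SD, n = 3) after BRCA1 transfection against 18.9 ± 3.56 with the empty vector (log2 fold change 0.95, limma adjusted p = 0.00373). Of the epithelial keratins, KRT18 stood at 188 FPKM or more in every sample and KRT7, KRT8 and KRT17 stood higher, whereas KRT19 and the E-cadherin gene CDH1 reached at most 0.917 and 0.896 and the basal markers KRT5 and TP63 at most 0.202 and 0.369. Of this list EPCAM (log2 fold change 1.12), DSP (0.41), KRT18 (0.39) and KRT8 (0.20) were called higher in the OV-BRCA1 samples and KRT17 (-0.48) lower. The study's own list of downregulated genes, from a test on counts, holds KRT17 but also KRT8, the reverse of the direction found here. The leukocyte markers PTPRC, CD53, LST1 and TYROBP, the platelet markers PF4, PPBP and GP9, the endothelial markers VWF and KDR and the fibroblast marker LUM were listed at 0 in all 6 samples. Of the other markers, CD14 and CD68 are described with the leukocyte integrins, the fibroblast markers COL1A1 and FAP stood at 3.03 to 6.61 and 1.35 to 2.55 FPKM, the endothelial marker PECAM1 at 0.629 to 1.45 and the platelet marker GP1BA at 0.343 to 0.793. The 8 fibroblast markers summed to 5.56 to 6.13 FPKM in the OV-BRCA1 samples and 7.55 to 8.78 in the NC samples. Their part in the results was not tested.

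Of the 38 genes, 26 reached 0.5 FPKM in 3 or more samples and were tested, 17 integrin and 9 laminin genes. A gene was called when the adjusted p-value (limma on log2(FPKM + 1), two-sided, Benjamini-Hochberg over 16321 genes) was below 0.05. The added 1 makes the fold change of weakly expressed genes smaller than the ratio of their FPKM. In the OV-BRCA1 group 13 of the 26 were higher and 4 were lower, where 16.4% of all genes tested were higher and 18.9% lower. The groups were fully separate in 14 genes that were higher and 6 that were lower, where the background was 23.4% and 27.4%. ITGB7, among the 4 lower genes and the 6, and ITGA11, among the 6, passed the filter on low values through the NC samples alone and so could enter only as lower. The number of higher genes fell to 6 without OV-BRCA1 replicate 3, to 8 without NC replicate 1 or 3, to 9 without any other sample and to 8 without the filter on low values, so the genes that kept their call are named as such. The median log2 fold change was 0.32 over the 26 genes, 0.28 over the integrin and 0.35 over the laminin genes, and -0.04 over all genes tested. By family, 4 of 10 integrin alpha genes were higher and 0 lower, and 3 of 7 integrin beta genes were higher and 2 lower. Among the laminins, 1 of 3 alpha genes was higher and 1 lower, 2 of 3 beta genes were higher and 1 lower, and the gamma genes LAMC1 and LAMC3 were higher. The study's further criterion, an absolute log2 fold change above 1, was passed on this scale by ITGB3 alone, which was higher (1.02). It fell short without OV-BRCA1 replicate 1 or NC replicate 1 (0.95 each), with the most abundant transcript (0.87) and over protein-coding transcripts (0.97). The background was 2.89% of genes higher and 1.1% lower. The study's own list of downregulated genes past this criterion, from a test on counts, holds LAMA5 and LAMB2. In bulk samples, a change in the number of cells with a transcript and a change in the RNA per cell cannot be told apart.

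**Figure D1:**
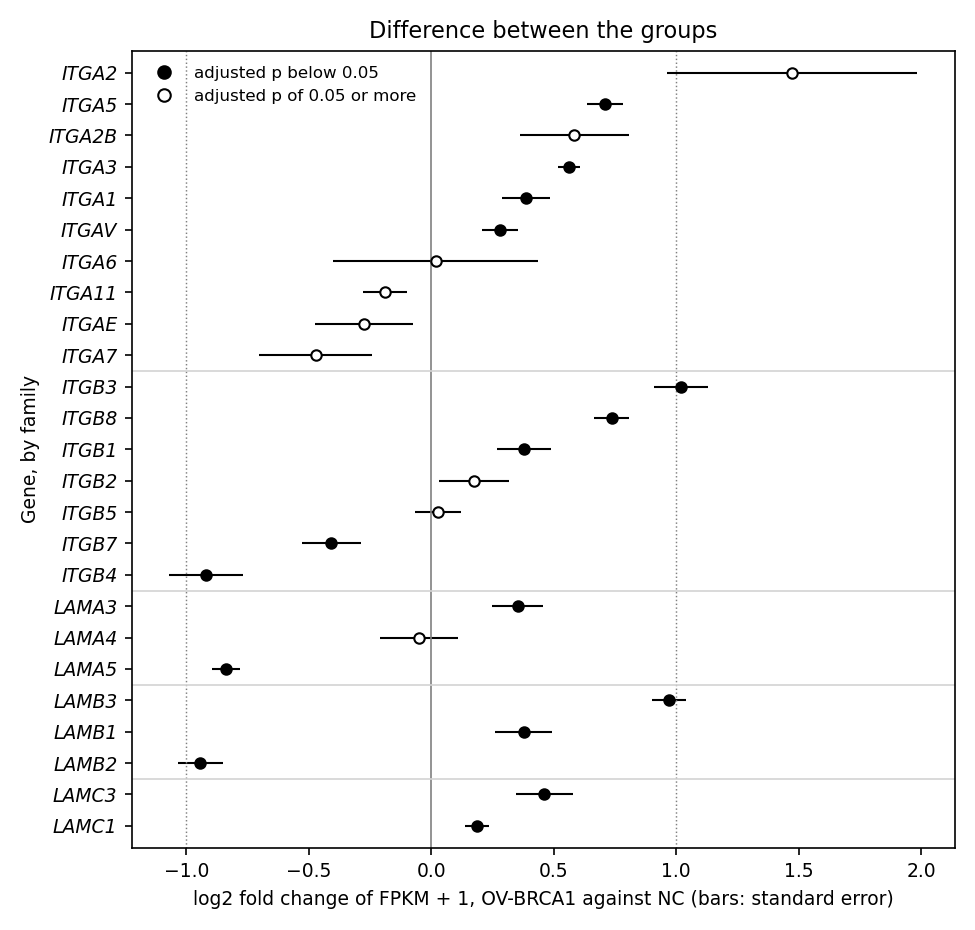
Log2 fold change of FPKM + 1 in the OV-BRCA1 group against the NC group (x axis) for 25 of the tested integrin and laminin genes, by family (y axis). Points are limma estimates with standard errors, filled where the adjusted p-value was below 0.05, and dotted lines mark a log2 fold change of 1 in either direction. The 12 filled points on the right run from LAMC1 (0.19) to ITGB3 (1.02), and the 4 on the left are LAMB2 (-0.94), ITGB4 (-0.92), LAMA5 (-0.84) and ITGB7 (-0.41).

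LAMA3 and LAMB3, which encode chains of laminin-332, were higher in the OV-BRCA1 group, and LAMA5 and LAMB2, the most abundant alpha and beta chain genes of the NC group, were lower. The bases before a start of LAMA3 and LAMB3, which were higher, and of LAMA5 and LAMB2, which were lower, are shown for comparison. Each run holds the 250 bases before the start, 5′ to 3′ on the strand of the gene, from RefSeq on GRCh38.p14. Capitals mark matches to the AP-1 letters TGANTCA or to the GC box letters GGGCGG on either strand.
LAMA3, chr18:23872770-23873019, plus strand: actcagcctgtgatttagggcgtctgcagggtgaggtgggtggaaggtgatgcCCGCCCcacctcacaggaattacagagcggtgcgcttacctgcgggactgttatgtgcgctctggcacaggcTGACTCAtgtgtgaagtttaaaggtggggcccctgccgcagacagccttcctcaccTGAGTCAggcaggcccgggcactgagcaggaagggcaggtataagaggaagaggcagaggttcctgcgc
LAMB3, chr1:209651375-209651624, minus strand: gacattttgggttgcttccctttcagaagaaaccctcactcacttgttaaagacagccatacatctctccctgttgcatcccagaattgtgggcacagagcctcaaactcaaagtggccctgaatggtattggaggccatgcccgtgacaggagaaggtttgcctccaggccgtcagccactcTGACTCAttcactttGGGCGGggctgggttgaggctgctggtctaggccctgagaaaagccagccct
LAMA5, chr20:62367313-62367562, minus strand: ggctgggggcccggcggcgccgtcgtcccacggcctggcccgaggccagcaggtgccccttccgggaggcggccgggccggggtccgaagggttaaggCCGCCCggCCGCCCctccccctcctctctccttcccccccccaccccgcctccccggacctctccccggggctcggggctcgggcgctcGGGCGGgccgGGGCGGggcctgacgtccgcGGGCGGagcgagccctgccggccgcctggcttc
LAMB2, chr3:49133051-49133300, minus strand: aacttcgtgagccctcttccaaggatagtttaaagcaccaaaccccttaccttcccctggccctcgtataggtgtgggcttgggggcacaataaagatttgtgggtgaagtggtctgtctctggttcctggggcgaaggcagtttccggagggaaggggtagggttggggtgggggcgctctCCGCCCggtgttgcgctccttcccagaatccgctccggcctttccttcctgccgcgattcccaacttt
The LAMA3 window lies before an internal start, 183577 bases inside the gene. It is not the start of LAMA3-202 and LAMA3-204, which began at the upstream end of the gene and held 28.9% and 37.5% of its FPKM in the OV-BRCA1 samples on average, against 47.4% and 32.6% in the NC samples. The LAMB3 window is 1 of 3 of that gene and lies before a start within 100 bases of that of LAMB3-203, 1092 bases inside the gene. In the LAMA3 window the AP-1 letters occurred 2 times, 125 and 69 bases before the start, and in the LAMB3 window shown 1 time, 67 bases before it. The other 2 LAMB3 windows, at the starts of LAMB3-201 and LAMB3-202, held none of these letters, nor did those of LAMA5 and LAMB2. The GC box occurred 1 time each in the LAMA3, LAMB3 and LAMB2 windows shown and 5 times in that of LAMA5. Among all 33 windows of the 26 matched integrin and laminin genes, the AP-1 letters were found in 2 windows, the GC box in 17 and the interferon-stimulated response element in 1, that of ITGB5. Over all 35116 windows of the RefSeq table the shares were 6.57%, 42.64% and 3.02%. The GC content was 60.4% in LAMA3, 54.0% in LAMB3, 82.8% in LAMA5 and 58.4% in LAMB2. These matches describe the letters and not the binding of a factor.

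LAMB3 (ENSG00000196878, chromosome 1, 209614870 to 209652466) encodes the beta chain of laminin-332. Its FPKM was 28.0, 25.9 and 28.5 in the OV-BRCA1 samples and 13.2, 12.9 and 14.5 in the NC samples, and the lowest OV-BRCA1 sample exceeded the highest NC sample. The ratio of the means was 2.03 and the log2 fold change 0.97 (SE 0.07, adjusted p = 2.05e-04), just under the fold change of the criterion. LAMA3 (ENSG00000053747, chromosome 18, 23689443 to 23956222), the alpha chain gene, stood at 7.73, 6.39 and 7.05 FPKM against 5.81, 4.71 and 5.42. Its groups were separate but close (log2 fold change 0.35, SE 0.10, adjusted p = 0.0389). The call of LAMA3 was lost without OV-BRCA1 replicate 1 or 3 or NC replicate 2 or 3, where the adjusted p-value reached 0.105 and the log2 fold change lay between 0.28 and 0.41, while LAMB3 kept its call without any 1 sample. Both depended on how transcripts were combined. With the most abundant transcript in place of the gene sum, LAMA3 turned to -0.28 (adjusted p = 0.571) and LAMB3 was 0.63 and not called (adjusted p = 0.673). LAMA3 was also not called over protein-coding transcripts (0.30, adjusted p = 0.171), with sums weighted by transcript length (0.19, adjusted p = 0.0510) or without the filter on low values (adjusted p = 0.0766).

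LAMA5 and LAMB2 encode chains of laminin-511 and laminin-521, which are widespread in basement membranes and bind alpha3beta1 and alpha6beta1. LAMA5 (ENSG00000130702, chromosome 20, 62307955 to 62367312) stood at 43.6, 47.5 and 46.4 FPKM in the OV-BRCA1 samples and 85.6, 78.7 and 84.2 in the NC samples. LAMB2 (ENSG00000172037, chromosome 3, 49121114 to 49133118) stood at 53.9, 58.7 and 58.2 against 126, 101 and 106. In both genes all OV-BRCA1 samples were below all NC samples, with mean FPKM 0.554 and 0.514 times that of the NC group. The log2 fold change was -0.84 for LAMA5 (SE 0.06, adjusted p = 1.71e-04) and -0.94 for LAMB2 (SE 0.09, adjusted p = 7.32e-04). LAMA5 overlaps ADRM1 and LAMA5-AS1 on the opposite strand, and the effect of reads from these was not tested. Both calls held without any 1 sample. The size of the LAMB2 difference depended on the transcripts counted, with -1.67 for its most abundant transcript, a retained-intron one, and -0.59 over protein-coding transcripts.

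LAMC1 (ENSG00000135862, chromosome 1, 183023460 to 183145592), the gamma chain of most laminins, stood at 31.1, 30.8 and 30.1 FPKM against 26.6, 27.4 and 26.4. This small difference (log2 fold change 0.19, SE 0.05, adjusted p = 0.0258) was larger than the spread within each group. LAMB1, the beta chain of laminin-111 and laminin-511, stood at 29.9, 29.7 and 29.7 against 20.4, 27.5 and 20.8 (log2 fold change 0.38, adjusted p = 0.0457). LAMC3, a gamma chain of restricted distribution, stood at 4.09, 4.86 and 4.69 against 2.54, 3.53 and 3.04 (0.46, adjusted p = 0.0252). LAMC1 and LAMB1 lost their calls without OV-BRCA1 replicate 1, 2 or 3 or NC replicate 1 or 3, with adjusted p-values up to 0.0749 and 0.125, and LAMC3 without OV-BRCA1 replicate 2 or 3 or NC replicate 1 or 3, up to 0.0759. Over the 6 samples left out in turn, the log2 fold change stayed at 0.18 to 0.20 in LAMC1, 0.31 to 0.51 in LAMB1 and 0.37 to 0.55 in LAMC3. LAMB1 was also not called with the most abundant transcript (0.32, adjusted p = 0.428), and neither LAMB1 nor LAMC3 was called without the filter on low values (adjusted p = 0.101 and 0.0605). The log2 fold change was larger for LAMB1 over protein-coding transcripts (0.64) and for LAMC3 with length-weighted sums (0.75). LAMB1 overlaps DLD on the opposite strand, whose part was not tested. LAMA4, an alpha chain of vessel and muscle basement membranes, stood at 2.40, 3.72 and 3.96 FPKM against 3.67, 3.08 and 3.63 (log2 fold change -0.05, 95% confidence interval -0.44 to 0.34, adjusted p = 0.833). It was 0.11 over protein-coding transcripts and -0.50 with the most abundant transcript. With length-weighted sums it was -0.28 and was called lower (adjusted p = 0.0448).

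**Figure D2:**
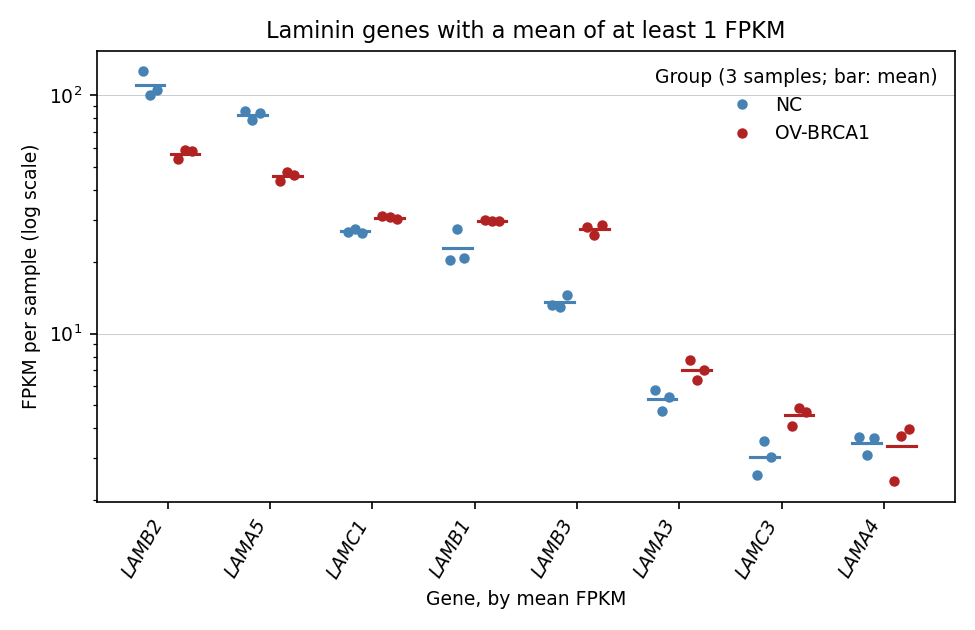
FPKM per sample (y axis, log scale) of 8 laminin genes with a mean of at least 1 FPKM (x axis, by mean), with 3 points per group and a bar at each group's mean. LAMB2 and LAMA5 are the highest genes in both groups and lower in the OV-BRCA1 group, LAMB3 moves from 13.5 to 27.5 FPKM, and the points of LAMA4 overlap.

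The proportions of the laminin chains also differed between the groups. Of the summed FPKM of the beta chain genes, LAMB2 held 49.9% ± 1.57 (SD, n = 3) in the OV-BRCA1 group against 75.1% ± 3.81 in the NC group, while LAMB3 held 24.1% ± 1.24 and 9.22% ± 1.02. LAMB1 held 26.1% ± 0.607 and 15.7% ± 3.45. Of the alpha chain genes, LAMA5 held 80.8% ± 1.04 in the OV-BRCA1 group against 90.3% ± 0.515 in the NC group, and LAMA3 12.5% ± 1.60 and 5.78% ± 0.330. LAMA5 thus remained the main alpha chain gene in both groups. The groups did not overlap in any of these 5 shares, and the exact two-sided permutation test gave p = 0.1 for each, the smallest value that 3 samples against 3 allow. The sums depend on short transcripts that are not coding. Over protein-coding transcripts alone, chosen after seeing the data, the share of LAMB2 was 29.8% ± 0.354 against 54.1% ± 0.425 and that of LAMB3 39.7% ± 1.85 against 23.2% ± 0.681, so that LAMB3 and not LAMB2 was the highest beta chain gene of the OV-BRCA1 group. In fragments, FPKM times transcript length, LAMB2 held 38.1% ± 0.541 against 64.4% ± 1.46 and LAMB3 29.2% ± 1.12 against 14.2% ± 0.767.

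**Figure D3:**
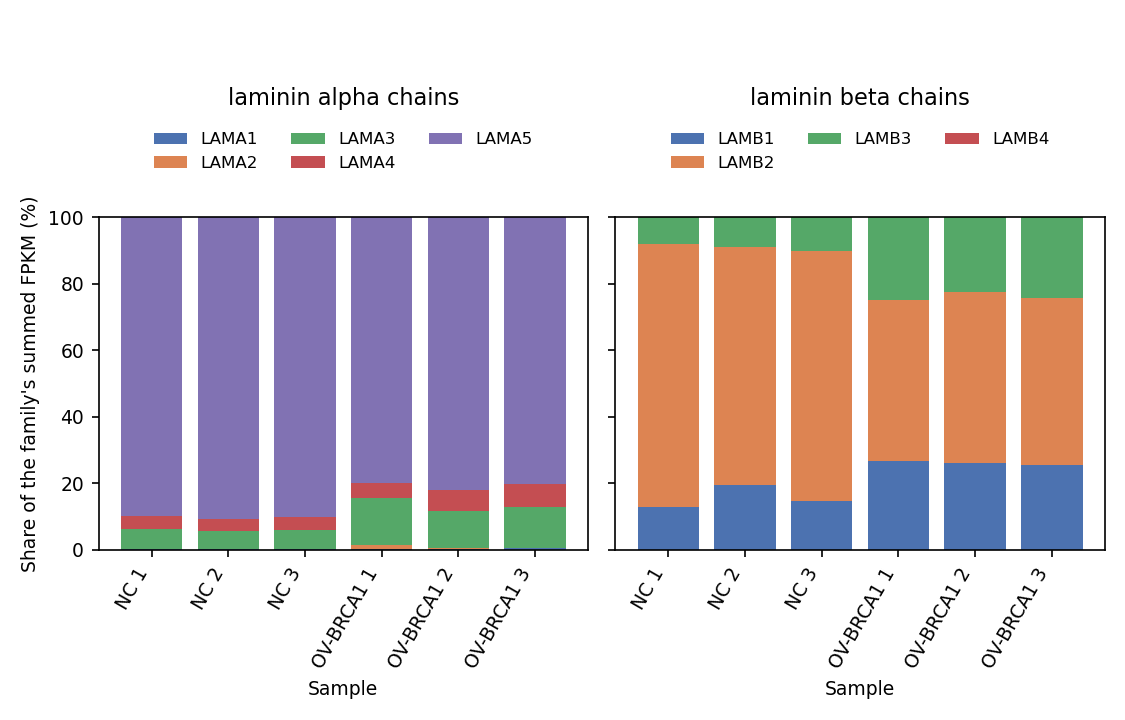
Share of each laminin gene in the summed FPKM of its family (y axis, percent) in each of the 6 samples (x axis), for alpha and beta chains. In the beta chains the LAMB2 share is 71.4% to 79.0% in the NC samples and 48.2% to 51.4% in the OV-BRCA1 samples.

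The summed FPKM of the laminin alpha and beta genes was lower in the OV-BRCA1 group and that of the integrin families was higher. The laminin gamma genes were left out of these sums. The laminin alpha genes summed to 56.8 ± 1.93 FPKM (SD, n = 3) against 91.7 ± 4.54 in the NC group, and the laminin beta genes to 114 ± 2.28 against 147 ± 10.9. The integrin alpha genes summed to 189 ± 11.6 against 139 ± 8.94 and the integrin beta genes to 289.7 ± 16.6 against 239 ± 19.6. In none of these 4 sums did the groups overlap. The direction of the beta sum depended on the transcripts counted. Over protein-coding transcripts alone the laminin beta genes summed to 69.1 ± 0.495 FPKM in the OV-BRCA1 group against 58.2 ± 2.22, which was higher, and the laminin alpha genes to 25.7 ± 0.617 against 35.5 ± 1.17, which was lower. In fragments the laminin beta sum was 0.992 ± 0.0142 times the NC mean and the groups overlapped, whereas the alpha sum was 0.658 ± 0.0240 times it.

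Among the receptors, ITGB1, ITGA3 and ITGA5, which encode the chains of alpha3beta1 and alpha5beta1, were higher after BRCA1 transfection. The genes of the other laminin-binding alpha chains, ITGA6 and ITGA7, were not called. ITGB1 (ENSG00000150093, chromosome 10, 32900319 to 33005792), the beta chain shared by most matrix receptors, was the most abundant integrin gene on the FPKM scale, with 199, 165 and 201 in the OV-BRCA1 samples and 138, 132 and 164 in the NC samples. OV-BRCA1 replicate 2 lay just above NC replicate 3, and the log2 fold change was 0.38 (SE 0.11, adjusted p = 0.0382). The call was lost without OV-BRCA1 replicate 1 or 3 or NC replicate 1 or 2, with adjusted p-values up to 0.109, and with the most abundant transcript (0.37, adjusted p = 0.219), over protein-coding transcripts (0.37, adjusted p = 0.0609) or without the filter on low values (adjusted p = 0.0933). ITGA3 (ENSG00000005884, chromosome 17, 50055968 to 50090481), the alpha chain of the laminin receptor alpha3beta1, stood at 110.4, 103 and 108 FPKM against 71.8, 71.9 and 72.9. The NC samples were close together and well below the OV-BRCA1 samples, and the log2 fold change was 0.56 (SE 0.04, adjusted p = 2.99e-04). ITGA5 (ENSG00000161638, chromosome 12, 54395261 to 54419460), the alpha chain of the fibronectin receptor alpha5beta1, stood at 19.7, 17.7 and 18.9 against 11.8, 10.3 and 11.1. Its mean was 1.69 times that of the NC group (log2 fold change 0.71, SE 0.07, adjusted p = 8.86e-04), and ITGA3 and ITGA5 kept their calls without any 1 sample.

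The collagen-binding alpha chains were less certain. ITGA1 stood at 3.69, 3.84 and 4.26 FPKM in the OV-BRCA1 samples and 2.51, 2.71 and 3.11 in the NC samples (log2 fold change 0.39, adjusted p = 0.0231), and the call was lost without OV-BRCA1 replicate 2 or 3 or NC replicate 1 or 2, with adjusted p-values up to 0.0697, or without the filter on low values (adjusted p = 0.0536). ITGA1 shares its strand and part of its span with PELO, so reads may be divided between them. ITGA2 (ENSG00000164171, chromosome 5, 52989326 to 53094779) had the highest log2 fold change of the 26 genes, 1.47 (SE 0.51), but did not pass the test (adjusted p = 0.0673). Its FPKM was 5.58, 19.8 and 5.82 in the OV-BRCA1 samples and 3.78, 1.25 and 3.08 in the NC samples. The groups did not overlap, and OV-BRCA1 replicate 2 was far above the other samples. Without it the log2 fold change was 0.93. ITGA11 was tested at an FPKM of 0.287 to 0.433 in the OV-BRCA1 samples and 0.534 to 0.612 in the NC samples and was not called (-0.19, adjusted p = 0.147).

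The alphav integrins bind ligands with an RGD motif, such as fibronectin and vitronectin, and alphavbeta8 also binds latent TGF-beta. ITGAV (ENSG00000138448, chromosome 2, 186590065 to 186680901), their shared alpha chain, stood at 13.8, 14.9 and 14.2 FPKM in the OV-BRCA1 samples and 12.2, 11.9 and 10.7 in the NC samples (log2 fold change 0.28, SE 0.07, adjusted p = 0.0267). The call was lost without OV-BRCA1 replicate 2 or 3 or NC replicate 2 or 3, with adjusted p-values up to 0.0788. ITGB3 (ENSG00000259207, chromosome 17, 47253846 to 47311816) stood at 3.29, 2.70 and 2.67 against 0.729, 0.983 and 1.04, a ratio of 3.15 (log2 fold change 1.02, SE 0.11, adjusted p = 0.00107), with an estimated 46.7 to 160 fragments per sample. ITGB8 (ENSG00000105855, chromosome 7, 20330702 to 20415754) stood at 14.8, 15.8 and 16.3 against 9.29, 9.26 and 8.36 (log2 fold change 0.74, SE 0.07, adjusted p = 7.09e-04). ITGB3 and ITGB8 were separate between the groups and kept their calls without any 1 sample. ITGB5, the most abundant of these partners, stood at 67.9, 82.0 and 80.1 against 68.3, 78.7 and 78.5, which overlapped (log2 fold change 0.03, 95% confidence interval -0.20 to 0.25, adjusted p = 0.851). Over the alternatives its log2 fold change ran from -0.29 to 0.31, with adjusted p-values of at least 0.347. ITGB6, the epithelial partner, reached at most 0.121 FPKM in any sample and was not tested.

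Of the hemidesmosome receptor alpha6beta4, which anchors keratin to laminin-332, the beta chain gene was lower. ITGB4 (ENSG00000132470, chromosome 17, 75721328 to 75757818) stood at 2.65, 1.72 and 1.79 FPKM in the OV-BRCA1 samples and 3.99, 5.24 and 5.01 in the NC samples. The groups did not overlap (log2 fold change -0.92, SE 0.15, adjusted p = 0.00524), and the call held without any 1 sample. With ITGB4-201, the most abundant transcript over all samples, in place of the gene sum, the log2 fold change turned to 0.41 and was not called (adjusted p = 0.446). In the NC group, however, ITGB4-206 held 39.1% of the gene's FPKM and ITGB4-201 18.4%. GALK1 overlaps ITGB4 on the opposite strand, and its part was not tested. ITGA6 (ENSG00000091409, chromosome 2, 172427354 to 172506282), the alpha chain, varied widely within both groups, with 24.4, 13.0 and 11.1 FPKM against 12.5, 10.0 and 26.9. OV-BRCA1 replicate 1 and NC replicate 3 were both high, and the log2 fold change was 0.02 with a 95% confidence interval from -0.99 to 1.03 (adjusted p = 0.977).

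Of the leukocyte integrin genes, ITGB2, ITGAE and ITGB7 reached the filter on low values, and ITGB7 alone was called. ITGAL, ITGAM, ITGAX, ITGAD and ITGA4, which encode alpha chains of leukocytes, reached at most 0.112 FPKM in any sample, and ITGAL was listed at 0 in all. ITGB2, the beta chain that pairs with the products of ITGAL, ITGAM, ITGAX and ITGAD, stood at 3.87, 4.46 and 3.38 FPKM in the OV-BRCA1 samples and 3.84, 2.63 and 3.62 in the NC samples (log2 fold change 0.17, 95% confidence interval -0.17 to 0.52, adjusted p = 0.386). ITGAE, the alpha chain that binds E-cadherin, stood at 19.7, 15.6 and 12.2 against 16.4, 23.8 and 17.6 (-0.27, adjusted p = 0.331) and overlaps HASPIN on the opposite strand. The transcript ITGAE-207, annotated as processed and not as coding, held 69.0% of the FPKM of ITGAE with BRCA1 transfection against 71.9% without it. The partner of ITGAE, ITGB7, was lower, with 0.207, 0.143 and 0.450 against 0.787, 0.640 and 0.594 (-0.41, adjusted p = 0.0405), on an estimated 6.47 to 18.9 fragments per sample. Since it was tested only because the NC samples passed the filter, this call is a description. The call of ITGB7 was lost without OV-BRCA1 replicate 1 or 2, with adjusted p-values up to 0.109, and with 1 NC sample left out it did not reach the filter on low values. It was also not called with a pseudocount of 0.1, where the log2 fold change was -1.16 (adjusted p = 0.0512), without the filter (adjusted p = 0.0687) or with length-weighted sums (adjusted p = 0.0624). ZNF740 overlaps ITGB7 on the opposite strand. The platelet chain gene ITGA2B (0.58, adjusted p = 0.0878) and ITGA7, the laminin receptor chain of muscle (-0.47, adjusted p = 0.161), were tested below a mean of 1 FPKM and not called. Without OV-BRCA1 replicate 2, ITGA2B was called (0.77, adjusted p = 0.0446). With length-weighted sums, both were called, ITGA2B higher (1.17, adjusted p = 0.00186) and ITGA7 lower (-0.70, adjusted p = 0.00370), the latter also over protein-coding transcripts (-0.35, adjusted p = 0.0154). Of the 10 leukocyte markers 5 were listed at 0, and the list summed to 32.7 to 38.2 FPKM in the OV-BRCA1 group against 23.8 to 24.6 in the NC group. Its highest genes were CD68, which rose from 3.43 to 26.3, and CD14, which fell from 19.4 to 7.79.

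The 12 genes that were not tested had a mean of at most 0.369 FPKM over all samples, that of ITGA10. Besides the leukocyte chains and ITGB6 they were ITGA8, ITGA9, LAMA1, LAMA2 and LAMB4. LAMA2, an alpha chain of muscle, was the only one of these above 0.7 FPKM in any sample, with 0.716 in OV-BRCA1 replicate 1 against 0.255 and 0.0674 in the others and 0.0192 to 0.0718 in the NC samples. In that replicate most of it lay in the processed transcripts LAMA2-203 (0.284) and LAMA2-204 (0.409). The coding transcript LAMA2-206 stood at 0.0221 there.

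**Figure D4:**
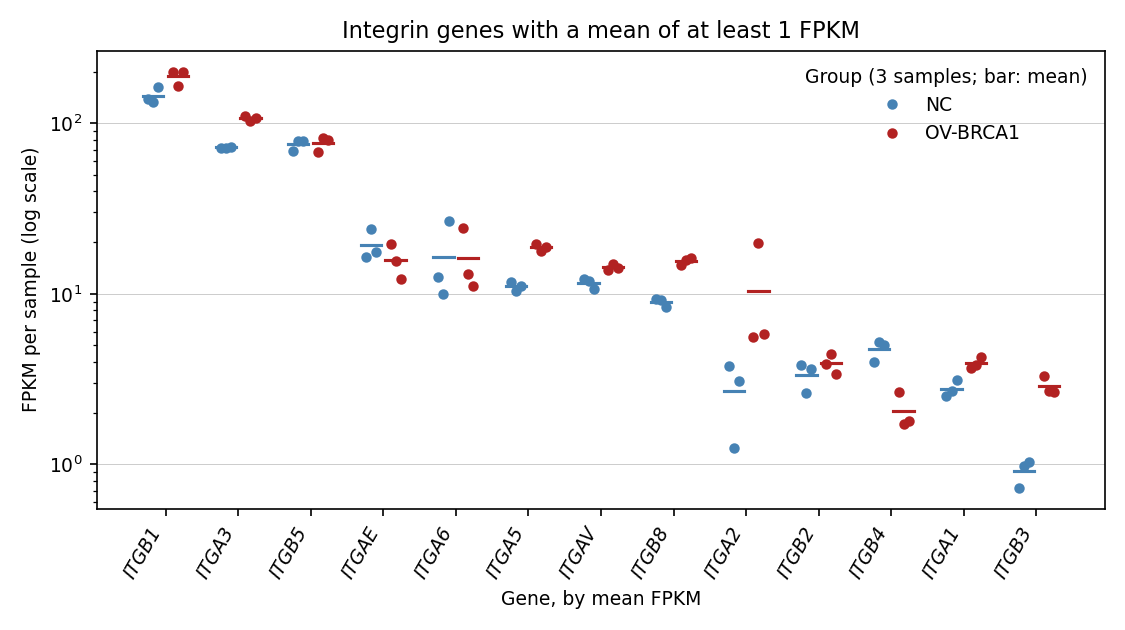
FPKM per sample (y axis, log scale) of the 13 integrin genes with a mean of at least 1 FPKM (x axis, by mean), with 3 points per group and a bar at each group's mean. ITGA3, ITGA5, ITGB8 and ITGB3 are higher in all OV-BRCA1 samples and ITGB4 is lower, whereas the single high points of ITGA2 and ITGA6 stand apart from their groups.

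The FPKM of the 38 genes was divided over 392 transcripts, of which 90 were tested. In the OV-BRCA1 group 5 transcripts were higher and 6 lower, where 2.85% and 2.63% of all 50925 transcripts tested were called. Leaving out 1 sample, whichever it was, gave 2 to 3 higher and 1 to 3 lower. The 5 higher ones were all annotated as protein-coding, among them ITGA3-202, ITGA5-201, ITGB3-201 and ITGB8-201, each the main transcript of its gene. ITGA3-202 rose from 34.4 ± 1.46 to 65.2 ± 0.795 FPKM (SD, n = 3, log2 fold change 0.90, adjusted p = 0.00227), whereas ITGA3-208, a retained-intron transcript of the same gene, stood at 17.0 ± 0.916 and 13.1 ± 0.315 (adjusted p = 0.0845). The share of ITGA3-202 in its gene was 60.8% against 47.7%. Of the 6 lower ones, 2 were the coding transcripts LAMA5-201, which fell from 29.8 ± 1.06 to 18.6 ± 0.857 (-0.65, adjusted p = 0.0122), and LAMB2-201, which fell from 27.1 ± 2.19 to 19.4 ± 0.0647 (-0.46, adjusted p = 0.0446). The retained-intron transcripts LAMB2-217 (39.3 ± 13.7 to 11.4 ± 2.35, log2 fold change -1.67, adjusted p = 0.0302) and LAMB2-206 (12.8 ± 1.00 to 5.64 ± 0.497, -1.06, adjusted p = 0.00886) fell further than LAMB2-201, a contrast that was not tested. LAMA5-209 and LAMA5-211, named because they were called, held under 10% of their gene and were also lower. By type, the median log2 fold change was 0.40 over 41 protein-coding, -0.21 over 31 retained-intron and -0.01 over 13 processed transcripts, and -0.05 over all transcripts tested.

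**Figure D5:**
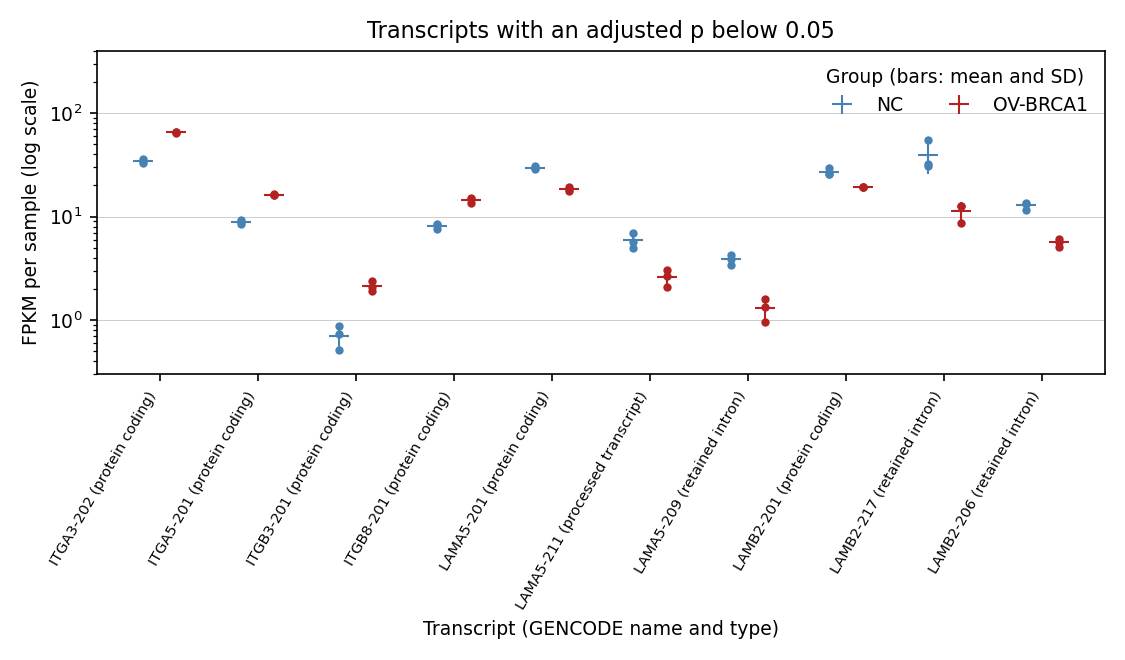
FPKM per sample (y axis, log scale) of 10 integrin and laminin transcripts with an adjusted p-value below 0.05 (x axis, with GENCODE type), 3 points per group with mean and SD. The 4 higher transcripts are all protein-coding, and of the 6 lower ones, all of LAMA5 or LAMB2, 2 are protein-coding.

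In several genes the division between transcripts changed from sample to sample within a group while the gene sum did not. LAMB3-203 held 23.2 and 22.7 FPKM in OV-BRCA1 replicates 1 and 2 but 2.57 in replicate 3, where LAMB3-201 rose to 15.7 and LAMB3-202 to 9.08. LAMB3-203 likewise held 10.4, 10.8 and 3.07 in the NC samples. LAMA3-201, a shorter transcript from the internal start region, stood at 4.17 FPKM in OV-BRCA1 replicate 1 and at most 0.00620 in the other samples, and LAMA3-202, the long one, held 0.793 in that replicate and 2.36 to 2.76 elsewhere. ITGB4-206 was listed at 0 in all OV-BRCA1 samples and NC replicate 1 and stood at 3.08 and 2.49 in the other two NC samples. No order of these isoforms between the groups was read from such values. ITGA6-201 carried the unstable level of its gene, with 16.6, 3.67 and 2.15 in the OV-BRCA1 samples and 3.25, 2.61 and 17.9 in the NC samples, and ITGA6-202 stood at 6.02, 5.38 and 6.52 against 3.94, 4.28 and 4.60 (adjusted p = 0.137).

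The partners of these genes were taken from 4 lists, where the background was 16.4% of all genes tested higher and 18.9% lower. Of the focal adhesion and integrin activation list, 43 of 48 genes were tested, 6 were higher (14.0%) and 13 lower (30.2%), with a median log2 fold change of -0.10. Among the higher ones were VCL, which encodes vinculin (log2 fold change 0.25, adjusted p = 0.0130), PTK2, which encodes focal adhesion kinase (0.27, 0.0240), and its substrate gene BCAR1 (0.42, 0.0246). Among the lower ones were SHARPIN, an inhibitor of integrin activation (-0.44, 0.00286), KANK2, a talin-binding protein (-1.33, 0.00531), PARVA, of the complex with integrin-linked kinase (-0.30, 0.00531), and the kinase gene PTK2B (-0.71, 0.0138). KANK2 was the only gene of this list past the fold change of the criterion here. ACTN4 was among the 6 higher ones (0.90, adjusted p = 0.0394), whereas the study lists it as downregulated. Of the hemidesmosome and tetraspanin list, 8 of 11 were tested, 1 was higher (12.5%) and 3 lower (37.5%), and the median was -0.09. PLEC, which encodes the keratin linker plectin, was lower (108 to 80.1 FPKM, -0.43, adjusted p = 7.94e-04), as were the tetraspanin genes CD9 (-0.41, 0.00129) and CD82 (-0.48, 0.0124), and CD81 was higher (0.17, 0.0394).

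Of the basement membrane list, 14 of 20 genes were tested, 3 were higher (21.4%) and 5 lower (35.7%), beside 16.4% and 18.9% of all genes, with a median of -0.05. The 2 genes of this list that encode laminin receptors, BCAM and DAG1, were lower. BCAM, a receptor for the laminin alpha5 chain, stood at 13.0, 16.7 and 13.9 FPKM in the OV-BRCA1 samples and 41.9, 32.6 and 34.9 in the NC samples (-1.27, adjusted p = 7.34e-04), and DAG1, which encodes dystroglycan, at 7.04, 7.44 and 6.74 against 22.3, 31.7 and 12.3 (-1.42, adjusted p = 0.0140). These 2 passed the fold change of the criterion. COL7A1, the anchoring fibril collagen (-0.64, adjusted p = 0.00180), and BMP1, a protease that processes laminin-332 and procollagens (-0.64, 0.00156), were also lower. NTN4, a netrin that binds laminin (0.60, 0.00106), FRAS1 (0.65, 0.00700) and the nidogen gene NID2 (0.57, 0.0441) were higher.

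Of the other integrin ligands, 17 of 32 genes were tested, 5 were higher (29.4%) and 4 lower (23.5%), beside 16.4% and 18.9% of all genes, with a median of -0.05. FN1, which encodes fibronectin, the ligand of alpha5beta1, stood at 40.1, 42.5 and 46.7 FPKM in the OV-BRCA1 samples and 25.8, 24.6 and 26.8 in the NC samples (0.72, adjusted p = 7.56e-04). TNC, the matrix protein tenascin-C, stood at 49.5, 50.6 and 42.2 against 14.2, 9.48 and 15.7 (1.80, adjusted p = 7.98e-04), and ICAM1, a ligand of the leukocyte integrins, at 117, 112 and 115 against 40.5, 38.9 and 41.0 (1.49, adjusted p = 7.34e-06). FN1, TNC and ICAM1 were thus higher in every OV-BRCA1 sample, and TNC and ICAM1 passed the fold change of the criterion. TGFB1, whose latent form binds alphavbeta8, was higher (0.31, 0.00308). The collagen genes COL5A1 (-1.06, 3.98e-05) and COL1A1 (-0.79, 0.00106), the vitronectin gene VTN (-0.32, 0.00308) and TGFB3 (-0.74, 0.00579) were lower.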

How the data were processed

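The study sequenced the mRNA of SiHa cells 48 h after transfection, with 3 biological replicates per group, OV-BRCA1 and NC. Reads that failed quality control were discarded by the authors, who deposited FPKM values for 199167 transcripts of 58174 genes. The submitters' processing notes name FastQC, HISAT2 and the hg38 genome build. The quantification tool, the annotation and the use of strand are not given in the sources used here.

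Groups and replicate numbers came from the labels. The 6 sample files held the same values as the series table. Names and positions came from GENCODE 29, which held 198868 of the transcripts, 98.7% of them at the same position. FPKM values were summed per gene. The 16321 genes that reached 0.5 FPKM in 3 or more samples were compared with limma 3.58.1 in R 4.3.3, on log2(FPKM + 1) with a mean-variance trend and no robust estimation, with Benjamini-Hochberg adjustment over all of them. The study's own test on counts, DESeq, could not be run on FPKM. Transcripts were compared in the same way. The genes and lists were chosen with earlier results of these data known.

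Members with a mean of at least 1 FPKM were named with their values, and those tested below it, ITGA2B, ITGA7, ITGA11 and ITGB7, are named after their values were seen. From each partner list, up to 4 genes per direction with the smallest adjusted p-values were named. Some genes that these rules cover are counted but not reported here by name. Transcripts were named where they held at least 10% of their gene's FPKM in either group. Depth was estimated from the low FPKM values of 14216 genes with 1 transcript, within 10 to 25 M fragments. Only 34.1% to 37.8% of these values came within 0.1 of a whole fragment count, and whole reads could not be recovered. The alternatives were another pseudocount, other filters, scaling, a replicate block, the most abundant transcript, robust estimation and each sample left out, and, chosen after seeing the data, sums over protein-coding transcripts and sums weighted by transcript length. Figures were drawn with Python 3.11.15 and matplotlib 3.10.9.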

Additional observations from a re-analysis of the deposited data

How the results depend on the processing

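The direction of the 17 called genes and their side of the threshold held for ITGA3, ITGA5, ITGB3, ITGB8, LAMA5 and LAMB2, among others, under each of the 15 alternatives that were run. The number of genes higher in the OV-BRCA1 group (13) fell to 8 without the filter on low values and to 6 to 9 when 1 sample was left out. The number lower (4) was 2 with the most abundant transcript in place of the gene sum and 3 to 4 when 1 sample was left out. The number past the fold change of the criterion (1) was 3 with a pseudocount of 0.1, 2 with median-of-ratios scaling, 0 over protein-coding transcripts only, 5 with sums weighted by transcript length and 1 to 2 when 1 sample was left out. The last 2 kinds of sum were chosen after seeing the data. Of the transcripts, 5 were higher and 6 lower. The lower ones numbered 2 without the filter, and leaving out 1 sample gave 2 to 3 higher and 1 to 3 lower. The causes were not tested.

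With the most abundant transcript, the log2 fold change turned to -0.056 in ITGA6, 0.41 in ITGB4, -0.29 in ITGB5 and -0.28 in LAMA3. ITGB5 was -0.030 with length-weighted sums and LAMA4 0.11 over protein-coding transcripts. When 1 sample was left out, ITGA6 ranged from -0.30 to 0.42, ITGB5 from -0.041 to 0.11 and LAMA4 from -0.15 to 0.12. With the most abundant transcript the calls of ITGB1 (0.37), LAMB1 (0.32) and LAMB3 (0.63) were lost in the same direction. The sum over the laminin beta genes was lower in the OV-BRCA1 group over all transcripts (114 against 147 FPKM) and higher over protein-coding ones (69.1 against 58.2), a comparison chosen after seeing the data. The size of other called differences moved by over 1.5 times in LAMB2 (-1.67 with the most abundant transcript and -0.59 over protein-coding ones), ITGA3 (0.90 with the most abundant transcript and 0.87 over protein-coding ones), ITGB3 and ITGB7 (1.56 and -1.16 with a pseudocount of 0.1), LAMB1 (0.64 over protein-coding transcripts and 0.59 with length-weighted sums), ITGA1 (0.59 with length-weighted sums) and LAMC3 (0.75 with length-weighted sums).

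The labels do not say whether the replicate numbers shared by the groups pair the samples. The deviations of same-numbered samples correlated at -0.024, 0.025 and 0.014, which with 3 samples per group cannot decide it. A fit with the replicate block called 11 genes higher and 3 lower, and 0 transcripts in either direction. It did not call ITGAV, LAMB1, LAMC1 and ITGB7, and it called ITGA2B (adjusted p = 0.0499). Depth limits the genes at low levels, and no error was estimated for the depth.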
